A study of Mus musculus with 6 samples.

Results

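Promoter regions of zinc finger protein genes were followed in a mouse study of DNA methylation on the way from fibroblasts to induced neurons. They are the entries of the authors' deposited promoter tables whose gene name is Zfp followed only by digits, and 462 of the 29559 deposited regions (1.56%) met this rule. They lie at 182 genes, against 370 annotated mouse genes with such a name, and each region lies at most 2 kb from a transcription start site (TSS). Methylation was measured by methylated DNA immunoprecipitation sequencing (MeDIP-seq), in which an antibody pulls down methylated DNA and the reads over a region report how much of it was recovered. The libraries came from induced neurons at 1, 3, 5 and 7 dpi, from primary neurons of the hippocampus of pups 1 day old, and from mouse embryonic fibroblasts (MEF) of E13.5 embryos. The induced neurons were made from MEF, and dpi, which the labels do not spell out, is their name for the 4 times. All cells were from the ICR strain at 3-5 passages, and the labels name no transgene, agent or sorting step. Each group has 1 library and all 5 comparisons use the same MEF library, so a difference between cell states and a difference between 2 libraries cannot be told apart. Only methylated DNA was measured, so the identity of the cells could not be checked against expressed markers.

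The name was checked against the protein names in the deposited tables, where 162 of the 182 genes carry "zinc finger", 13 are uncharacterized proteins, 3 have no protein name and 4 have another one. Not every gene with this prefix belongs to the same family: Zfp36 encodes tristetraprolin, an RNA-binding protein that promotes decay of mRNA, and Zfp185 encodes a LIM domain protein of the actin cytoskeleton. Most other members encode DNA-binding proteins with arrays of C2H2 zinc fingers, and many of these also carry a KRAB domain. KRAB zinc finger proteins bind chosen DNA sequences, often inside transposons, and recruit TRIM28, which brings the histone methyltransferase SETDB1, HP1 proteins and DNA methylation. The genes arose by tandem duplication and sit in clusters of close relatives, and some, such as Zfp57, keep the methylation of imprinted genes in the early embryo.

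These 4 stretches of sequence show what the regions look like near a TSS, 3 from genes listed as lower than MEF in every comparison and 1 from a gene listed as higher than MEF in 3 of them. Each is the part of the RefSeq promoter window (GRCm38.p6, the mm10 build of the deposited tables) that lies inside the region listed at 1 dpi and upstream of the start used for that window. For Zfp92 that start differs from the start in the deposited tables, by which the 1 dpi region is centred 368 bases downstream. The Zfp92 stretch therefore lies downstream of the deposited start. Stretches are read 5′ to 3′ on the strand of the gene, with each CpG, the main site of DNA methylation in mammals, in capitals. Zfp566 (chr7:30090561-30090760, minus strand) holds 9 CpG in 200 bases, Zfp790 (chr7:29815921-29816071, plus strand) 8 in 151 bases, Zfp92 (chrX:73411310-73411559, plus strand) 4 in 250 bases and Zfp160 (chr17:21008691-21008820, plus strand) 2 in 130 bases.
Zfp566: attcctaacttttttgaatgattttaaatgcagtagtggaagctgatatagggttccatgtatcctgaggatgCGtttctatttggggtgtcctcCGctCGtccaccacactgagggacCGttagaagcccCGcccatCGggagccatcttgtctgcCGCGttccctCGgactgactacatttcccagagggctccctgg
Zfp790: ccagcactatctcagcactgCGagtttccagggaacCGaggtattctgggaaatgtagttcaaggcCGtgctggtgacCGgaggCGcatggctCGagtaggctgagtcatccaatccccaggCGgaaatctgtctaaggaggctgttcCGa
Zfp92: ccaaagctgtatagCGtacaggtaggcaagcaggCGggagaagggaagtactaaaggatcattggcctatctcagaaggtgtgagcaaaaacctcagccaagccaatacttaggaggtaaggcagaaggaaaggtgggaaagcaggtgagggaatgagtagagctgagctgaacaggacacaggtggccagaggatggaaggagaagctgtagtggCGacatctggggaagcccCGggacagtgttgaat
Zfp160: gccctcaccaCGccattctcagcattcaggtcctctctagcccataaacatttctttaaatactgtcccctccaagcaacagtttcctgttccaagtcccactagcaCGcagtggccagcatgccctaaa

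CpG were counted near the starts of Zfp genes. Over the 300 bases around the start (250 upstream), the 147 listed Zfp genes with a window had a median of 13 CpG (quartiles 8 and 20), and the 158 that were not listed had a median of 15 (quartiles 9 and 22). A comparison with all genes is void, because 74.5% of them have a window, under the 80% required here, while 82.4% of the Zfp genes have one. By direction the count is void too, since 76.9% of the genes listed only as higher and 79.1% of those listed only as lower have a window.

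Zfp genes were listed about as often as other genes. The count of genes with a region higher than MEF was 4 for 1 dpi (1.08% of the annotated Zfp genes, against 1.77% of all 26220 annotated genes), 29 for 3 dpi (7.84%, against 5.23%), 14 for 5 dpi (3.78%, against 3.85%), 45 for 7 dpi (12.2%, against 12.4%) and 76 for primary neurons (20.5%, against 20.4%). The count with a region lower than MEF was 44 for 1 dpi (11.9%, against 10.6%), 57 for 3 dpi (15.4%, against 13.2%), 49 for 5 dpi (13.2%, against 10.7%), 42 for 7 dpi (11.4%, against 8.87%) and 65 for primary neurons (17.6%, against 15.3%). In the lower direction the Zfp share stood above that of all genes in each of the 5 comparisons, by less than 3 percentage points, and since these comparisons share the MEF library they do not count as 5 separate observations. Over any of the 5 comparisons, 139 Zfp genes (37.6%, against 33.6%) had a higher region and 78 (21.1%, against 17.6%) a lower one. In either direction 182 Zfp genes (49.2%) were listed, and the same share over all genes is not given here.

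**Figure D1:**
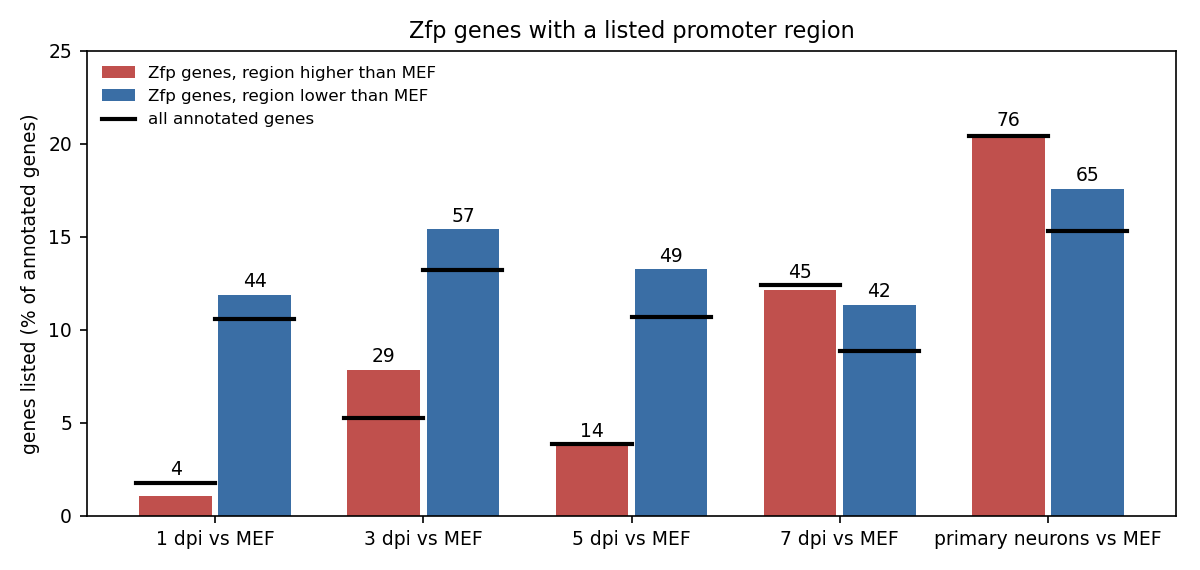
Genes with a listed promoter region (% of annotated genes) in each comparison with MEF, with red bars for Zfp genes listed higher than MEF, blue bars for Zfp genes listed lower, numbers for the count of Zfp genes and black lines for all annotated genes. The bars stay close to the lines, and the higher lists hold 4 genes at 1 dpi, the fewest, and 76 in primary neurons, the most.

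The balance of the 2 directions shifted between the induced neuron times much as it did for all genes. Lower regions made up 48 of the 52 Zfp regions at 1 dpi (92.3%, exact 95% interval 81.5% to 97.9%), against 85.3% of all listed regions. They made up 60 of 90 at 3 dpi (66.7%, 56.0% to 76.3%), against 72.4%, and 54 of 68 at 5 dpi (79.4%, 67.9% to 88.3%), against 72.7%. At 7 dpi they made up 44 of 91 (48.4%, 37.7% to 59.1%), against 40.9%, and in primary neurons 70 of 161 (43.5%, 35.7% to 51.5%), against 42.0%. In each comparison the share over all regions lies inside the interval of the Zfp share. The 7 dpi value depends on the authors' scaling: among the listed regions that pass a p of 0.0001 on unscaled reads, 27 were higher and 44 lower, so lower regions made up 62.0%, against 51.5% of all regions. In primary neurons the same count gave 43.1%, against 41.8% of all regions. This recount can only drop listed regions and cannot add regions that the scaling kept out, so it does not give the full balance on unscaled reads. The intervals cover counting error only and treat regions as independent, although several can lie at 1 gene.

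Behind each region stand few reads. The higher of the 2 libraries had 10 to 60 reads (median 13) over a region of 200 to 700 bases (median 280.0), and the other library had 0 reads in 422 of the 462 Zfp regions (91.3%, against 89.5% of all regions). Only 7 Zfp regions had over 30 reads, all of them higher than MEF: 3 at Zfp768 and 1 each at Zfp3, Zfp184, Zfp619 and Zfp934. A library with 0 reads was set to a floor of 3 reads, the upper limit that a count of 0 allows, so folds against it are bounds. The labels name no molecular identifiers, so reads are not known to be independent molecules, and bounds and intervals cover counting error only. The number of reads that the threshold asks for also differs by list, because the authors scaled the values of 2 comparisons: at 7 dpi the fewest reads in a listed Zfp region were 10 in regions higher than MEF and 13 in regions lower than MEF.

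Recurrence differed by direction in Zfp genes as it did in all genes. Of the 139 Zfp genes with a higher region, 116 (83.5%, against 77.3% of all genes with one) had it in 1 comparison, 17 in 2, 6 in 3 and none in 4 or 5. Of the 78 with a lower region, 9 had it in 1 comparison, 13 in 2, 19 in 3, 20 in 4 and 17 in all 5 (21.8%, against 22.3%). The 17 are 4.59% of the annotated Zfp genes, and 3.92% of all annotated genes were lower in all 5. No Zfp gene was higher in all 5, and 0.145% of all genes were. The counts rest on lists that all use the 1 MEF library: a position where MEF had many reads enters every lower list in which the other library had few. Joined by overlap, the higher regions formed 176 loci, of which 167 were seen in 1 comparison, 8 in 2 and 1 in 3, while the lower regions formed 86 loci with 10, 17, 22, 19 and 18 seen in 1 to 5 comparisons. Loci were formed for Zfp genes only, so these counts have no share over all genes beside them and set nothing apart at Zfp genes.

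**Figure D2:**
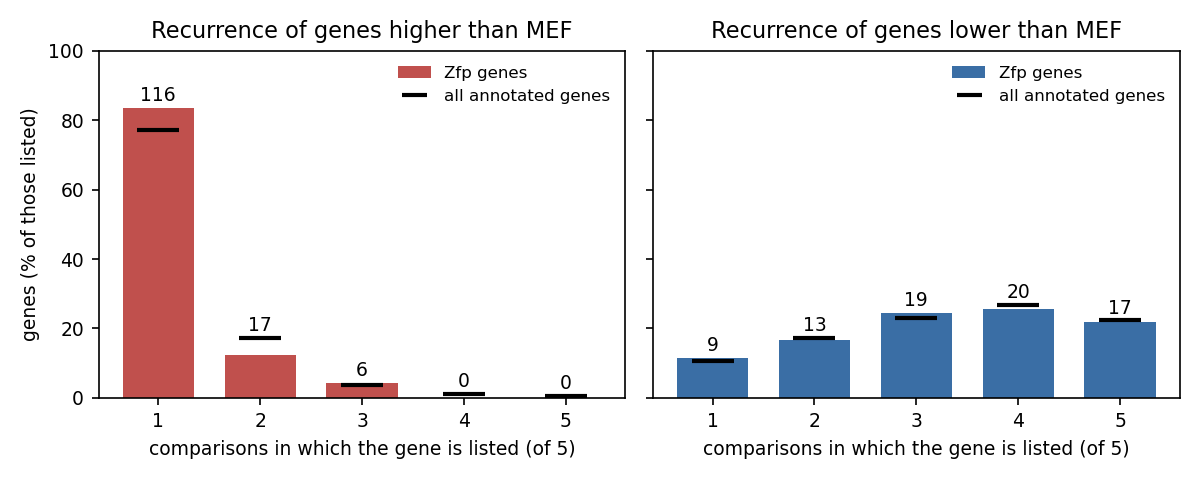
Share of genes (% of those listed in that direction) by the number of comparisons, of 5, in which they are listed, for regions higher than MEF on the left and lower than MEF on the right. Bars and numbers are Zfp genes and black marks are all annotated genes: 116 of the higher genes are in 1 comparison, and 17 of the lower genes are in all 5.

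The 17 genes lower in all 5 comparisons had almost no reads outside MEF. Their tested libraries had 0 reads in 72 of 85 values and at most 3, against 11 to 21 reads in MEF, so the groups did not overlap, which the choice of these genes fixes. Zfp217, whose human counterpart is amplified in breast cancer and acts in a corepressor complex, led this group by the p-values of the authors' deposited table. Its region at chr2:170129561-170129940, centred 1470 bases downstream of a start, had 0 reads in the induced neurons of every time and in primary neurons, against 19 reads in MEF in every comparison, which is at least 6.33-fold lower at 1 dpi. A second Zfp217 region, 575 bases upstream of another annotated start, had 1, 1, 0, 0 and 0 reads in the libraries of 1, 3, 5, 7 dpi and primary neurons, against 16 reads in MEF.

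Zfp92, an X-linked KRAB zinc finger gene, had 2, 0, 1, 0 and 0 reads in the libraries of 1, 3, 5, 7 dpi and primary neurons, against 21 reads in MEF. At 1 dpi that is 10.5-fold lower (exact 95% interval 2.57 to 92.4), and this region holds the sequence printed for Zfp92. Zfp963, on chromosome 8, had 3, 0, 1, 0 and 0 reads in the same order, against 21 in MEF. With 3 reads at 1 dpi (7.0-fold lower, 2.09 to 36.7) it was the highest of the 85 tested values. Zfp740, listed 1566 bases upstream of its start, had 2, 1, 0, 0 and 0 reads, against 19 in MEF. In these 3 genes the 1 dpi library had 2 or 3 reads and the 7 dpi library 0, which is not above the 3 reads that a count of 0 allows.

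Zfp566, a KRAB zinc finger gene of a chromosome 7 cluster, had regions at 2 places, and both were listed in every comparison. The region nearer to the start, part of which is printed above, had 1 read at 1 dpi against 20 in MEF, 0 reads at 3 and 5 dpi against 12 in MEF, and 0 reads at 7 dpi and in primary neurons against 20 in MEF. The MEF value differed where the listed borders differed: the 3 and 5 dpi regions begin at 30090741 and the others at 30090561. The region 1830 to 1950 bases upstream had 1, 0, 1, 0 and 0 reads, against 17, 13, 17, 17 and 17 in MEF.

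Zfp790 lies in the same cluster, and its listed region was the same in every comparison: chr7:29815921-29816300, centred 39 bases downstream of the start. It had 0 reads in each of the 5 tested libraries, against 15 reads in MEF. Zfp790 was listed as higher too: at 7 dpi with 10 reads against 0 in MEF, 551 bases upstream, and in primary neurons with 17 against 0. The higher region of primary neurons, chr7:29816241-29816580, shares 60 bases with the lower one. Zfp429, Zfp607, Zfp763, Zfp93, Zfp646 and Zfp407 also had 0 reads in all 5 tested libraries, against 11 to 17 in MEF. Zfp648, Zfp944, Zfp422, Zfp428 and Zfp759 had 1 read in 1 tested library each and 0 in the other 4, against 13 to 21 in MEF. Of the 17 genes, 16 were listed at 1 locus throughout, and Zfp407 was listed at different loci.

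**Figure D3:**
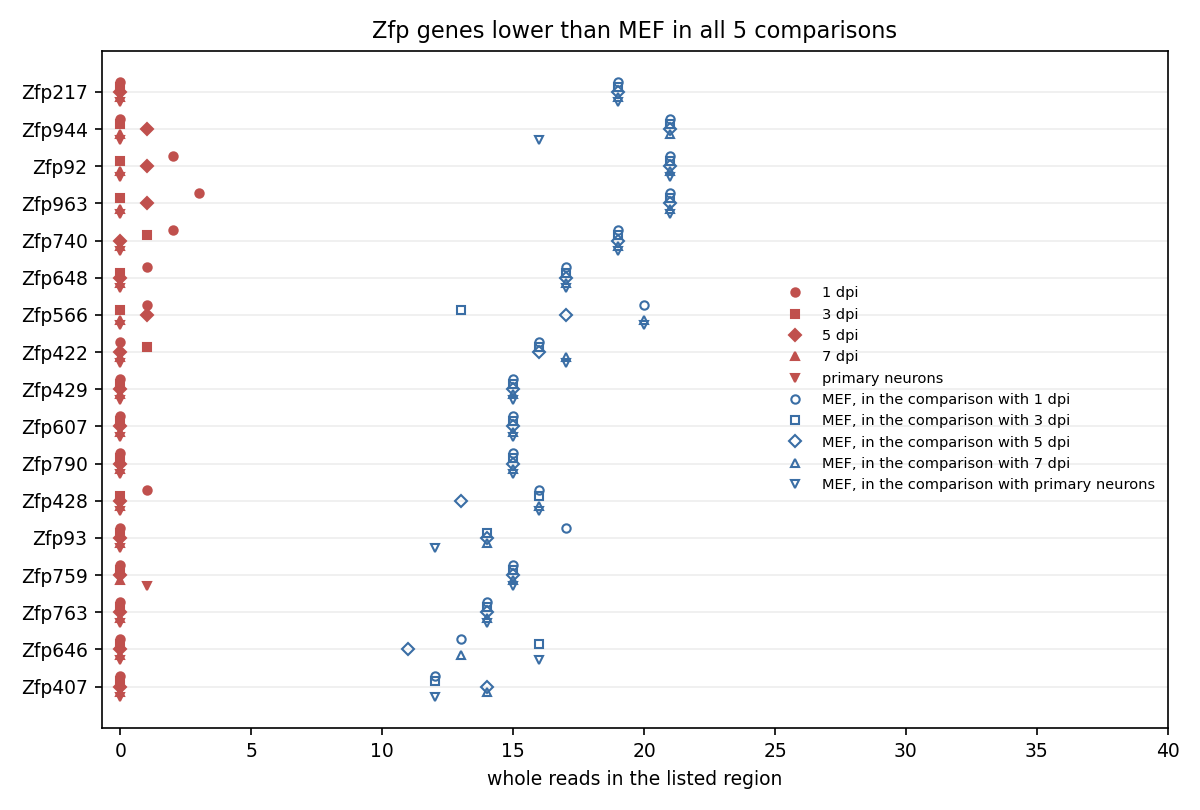
Whole reads in the listed region (horizontal axis) for the 17 Zfp genes lower than MEF in all 5 comparisons, with filled red symbols for the induced neuron and primary neuron libraries and open blue symbols for MEF in the same comparison. Where a gene had several lower regions in a comparison, the one with the smallest deposited p is shown. Tested libraries sit at 0 to 3 reads and MEF at 11 to 21, and MEF differs between comparisons of 1 gene only where the plotted region differs. For Zfp566 and Zfp407 the plotted regions lie at separate loci in different comparisons, and for the other genes only the borders differ.

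The higher lists held the regions with the most reads, and in a few of them MEF had reads too. Zfp768, whose human counterpart carries heptad repeats like those of RNA polymerase II, had 39 reads at 1 dpi, 60 reads at 5 dpi and 51 reads in primary neurons, against 9, 17 and 9 reads in MEF. The folds were 4.33 (2.07 to 10.2), 3.53 (2.03 to 6.45) and, on the authors' scaled values, 5.29 (2.58 to 12.2). All 3 regions are centred 1824 to 1884 bases downstream of the start on chromosome 7, from 127343241 to 127343640, and this was the only higher Zfp locus listed in 3 comparisons. It overlaps a promoter peak that the authors called in each of these 3 libraries, and the fold enrichment in the authors' deposited table is 8.65 there at 1 dpi and 11.3 at 5 dpi.

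Zfp3 had 39 reads at 5 dpi, against 7 reads in MEF (5.57-fold, 2.46 to 14.8). It was also listed at 7 dpi with 11 reads and in primary neurons with 16 reads, against 0 in MEF at both. The 3 regions do not overlap and lie 1534, 1194 and 944 bases downstream of the start. The authors called a promoter peak at Zfp3 in primary neurons and at 3, 5 and 7 dpi, and none in MEF. Zfp934 had 31 reads at 1 dpi, against 10 reads in MEF (3.10-fold, 1.48 to 7.09). This is the only Zfp region with a deposited p above 0.0001. Zfp934 is named here because of its reads, seen beforehand, and completes the 4 genes listed higher at that time with Zfp2, Zfp160 and Zfp768. Zfp2 had 17 reads at 1 dpi and 12 at 3 dpi at overlapping positions, against 0 in MEF, and 12 reads in primary neurons 921 bases downstream of the start, against 0 in MEF. Zfp160 had 11 reads at 1 dpi, 19 reads at 7 dpi and 14 reads in primary neurons, against 0 in MEF, at 3 places that do not overlap.

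At 3 dpi the region with most reads was at Zfp93, 1797 bases upstream of its start, with 27 reads against 0 in MEF (at least 9.0-fold higher). Zfp708 and Zfp157 came next with 17 and 16 reads, against 0 in MEF. At 5 dpi Zfp513, whose human counterpart is linked to retinal degeneration, had 20 reads against 0 in MEF (at least 6.67-fold). That region shares 100 bases with a Zfp513 region listed as lower at 7 dpi and in primary neurons, with 0 reads against 15 in MEF. At 7 dpi Zfp235, a KRAB zinc finger gene, and Zfp185, the LIM domain gene, each had 20 reads against 0 in MEF (at least 8.89-fold). Zfp235 was also listed at the same locus at 3 dpi with 15 reads against 0 in MEF, and elsewhere in primary neurons with 17 against 0.

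Primary neurons had the longest higher list, with 91 regions at 76 Zfp genes, and its share stood at the background. Zfp184 led it with 31 reads against 0 in MEF (at least 9.64-fold), followed by Zfp593, whose yeast counterpart acts in ribosome assembly, with 27 reads against 0 (at least 8.40-fold). Zfp619 had 31 reads against 1 read in MEF (28.8-fold, 4.82 to 1179), over the longest Zfp region, of 700 bases. Among the lower regions of primary neurons, Zfp799 had 0 reads against 21 in MEF (at least 7.50-fold lower). Zfp383 led the lower list of 3 dpi with 0 reads against 23 in MEF (at least 7.67-fold lower), over a region of 560 bases that is listed in 2 separate pieces in other comparisons.

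Zfp genes with a known role were taken from a list of 16, of which 7 were listed (43.8%, against 49.2% of all annotated Zfp genes): 5 only higher and 2 only lower. The 5 higher genes were all listed in primary neurons alone, the longest of the higher lists, which holds 20.4% of all genes. Zfp57, which protects methylation at imprinted genes, had 3 regions there, with 12, 12 and 14 reads against 0 in MEF, spread from 1102 bases upstream to 468 bases downstream of its start. Zfp809, which silences endogenous retroviruses in embryonic stem cells, had 22 reads against 0 in MEF (at least 6.84-fold). Zfp335, needed for brain growth, had 21 reads against 0, Zfp568, which represses a placental Igf2 transcript, had 16 against 0, and Zfp281, a regulator in pluripotent cells, had 12 and 15 against 0 at 2 places.

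The 2 lower genes of this list had regions next to their starts. Zfp36 had 0 reads in the libraries of 1, 3, 5 dpi and primary neurons, against 12, 12, 13 and 13 reads in MEF, in regions centred 112 to 172 bases upstream. It was not listed at 7 dpi, so its reads there are not known. The fewest MEF reads of any lower Zfp region at 7 dpi were 13, which Zfp36 reached at 5 dpi and in primary neurons, and the reason for its absence was not tested. Zfp462, a chromatin protein linked to neurodevelopmental disorder in humans, had 0 reads at 1 dpi, 7 dpi and in primary neurons, against 12, 13 and 13 in MEF, in regions centred 84 to 234 bases upstream.

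Both directions met at single genes. Of the 182 genes, 104 were only higher, 43 only lower and 35 had both, and 27 had both within 1 comparison. The 35 are 9.46% of the annotated Zfp genes, against 7.67% of all genes, and 19.2% of the listed Zfp genes, against 17.6% of all listed genes. The 27 are 7.30% of the annotated Zfp genes, against 5.81% of all genes. By comparison, with some genes in more than 1, they numbered 0 for 1 dpi, 7 for 3 dpi, 1 for 5 dpi, 6 for 7 dpi and 16 for primary neurons. At Zfp93 the 3 dpi library had 27 reads against 0 in MEF 1797 bases upstream of the start, and 0 reads against 14 in MEF 813 bases downstream. At Zfp959 the primary neurons had 21 reads against 0 in MEF, and in the next region, centred 260 bases away, 0 reads against 16. At Zfp607 the primary neurons had 21 reads against 0 upstream, and 0 against 15 downstream. At Zfp944 the 3 dpi library had 13 against 0 in 1 region and 0 against 21 in another 780 bases away. Of the 17 genes lower in all 5 comparisons, 6 also had a higher region, so a listing by gene name alone does not give a direction for a whole promoter.

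Regions lay on both sides of the start. Of the 276 lower Zfp regions, 21.7% were over 1 kb upstream, 17.0% within 1 kb upstream, 27.5% within 1 kb downstream and 33.7% over 1 kb downstream, against 25.1%, 23.1%, 22.7% and 29.1% of all lower regions. Of the 186 higher Zfp regions, 23.1%, 23.1%, 23.7% and 30.1% fell in these 4 bins, against 25.2%, 22.0%, 23.5% and 29.3% of all higher regions.

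Clusters were examined next, since Zfp genes lie in tandem arrays. With a cluster taken as 3 or more annotated Zfp genes with gaps of at most 500 kb between neighbouring starts, 34 clusters of 3 to 23 genes held 225 of the 370 genes. In clusters 86 genes (38.2%) had a higher region in any comparison and 47 (20.9%) a lower one, against 53 (36.6%) and 31 (21.4%) of the 145 genes outside. Of the 17 genes lower in all 5 comparisons, 12 were in clusters and 5 outside. Over any of the 5 comparisons, 22 clusters held both directions, 8 only higher genes, none only lower genes and 4 no listed gene. A cluster counts as both even where the directions come from different comparisons or from the same gene. Whether the genes of a cluster change together was not tested. By comparison, 1.78%, 8.44%, 2.67%, 11.6% and 22.2% of the genes in clusters were higher for 1, 3, 5, 7 dpi and primary neurons, against 0%, 6.90%, 5.52%, 13.1% and 17.9% of those outside. Lower genes made up 13.8%, 16.0%, 12.9%, 11.6% and 17.8% in clusters, against 8.97%, 14.5%, 13.8%, 11.0% and 17.2% outside, so neither direction stood on 1 side in every comparison.

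The largest cluster, 23 genes on chromosome 17 between 21008941 and 23569846 (first and last start), had 12 listed genes, 9 with a higher and 5 with a lower region. Of its genes 52.2% were listed, against 49.2% of all annotated Zfp genes. Its lower genes numbered 4, 4, 5, 3 and 5 in the lists of 1, 3, 5, 7 dpi and primary neurons, and its higher genes 1, 4, 0, 3 and 5. Zfp944 was lower in all 5, and Zfp760 was lower in all but 3 dpi, where it was listed as higher: there it had 11 reads against 0 in MEF, while in the other 4 comparisons it had 0 reads against 12 to 15 in MEF in regions that overlap it or lie next to it. A second cluster, 15 genes on chromosome 7 between 29768552 and 30160487, had 11 listed genes (73.3%) and holds Zfp566, Zfp790, Zfp383 and Zfp568. Its higher genes numbered 0, 0, 0, 5 and 6 in the same order, and its lower genes 2, 3, 3, 2 and 4. The 7 dpi and primary neuron lists are also the longest higher lists, with 12.4% and 20.4% of all genes.

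The chromosome 7 cluster between 24081877 and 25219849 (14 genes, 9 or 64.3% listed, against 49.2% of all annotated Zfp genes) had 0, 3, 2, 2 and 3 higher genes in the same order, with Zfp93, Zfp428 and Zfp235 among its listed members. Zfp428 had 1 read at 1 dpi and 0 in the other 4 tested libraries, against 13 to 16 in MEF. The chromosome 13 cluster between 67038594 and 67813816 (19 genes, 9 or 47.4% listed) had 4, 5, 3, 3 and 4 lower genes and 0, 2, 0, 1 and 3 higher genes, and holds Zfp429, Zfp759 and Zfp708. The cluster of 6 genes on chromosome 8 between 69209018 and 69761324 had all 6 listed, 5 with a higher region and 1, Zfp963, with a lower one. Clusters of 3 genes on chromosomes 2 and 13 were also listed in full. Chromosome 7 as a whole held 91 of the 370 Zfp genes (24.6%) and 129 of the 462 regions (27.9%). Listed regions of different Zfp genes in a cluster were separate: no Zfp region overlapped a listed region of another gene.

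**Figure D4:**
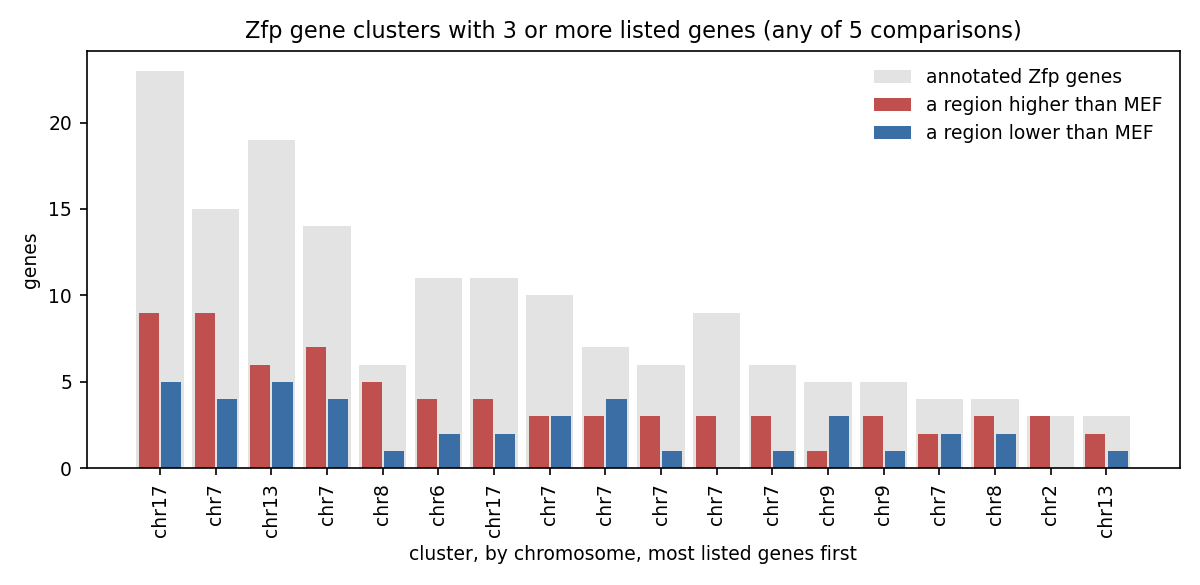
Clusters of Zfp genes with 3 or more listed genes, ordered by the number of listed genes and named by chromosome, with the number of genes on the vertical axis. Grey bars are annotated Zfp genes, red bars those with a region higher than MEF and blue bars those with a region lower than MEF in any comparison; both colours stand side by side in most clusters, and the first cluster has 23 genes, 9 higher and 5 lower.

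Peaks, which the authors called separately in each library and assigned to genes, did not enter the choice of regions. They come from the same libraries as the region counts, so they are not an independent measurement. A Zfp gene had a peak of any class in 44 cases for 1 dpi (11.9%, against 5.97% of all genes), 21 for 3 dpi (5.68%, against 4.51%), 58 for 5 dpi (15.7%, against 11.1%), 107 for 7 dpi (28.9%, against 29.2%), 67 for primary neurons (18.1%, against 16.8%) and 23 for MEF (6.22%, against 6.9%). The libraries differed in the number of peaks, from 1447 at 3 dpi to 14091 at 7 dpi, with 1886 at 1 dpi, 3918 at 5 dpi, 6636 in primary neurons and 2165 in MEF, and the part of this in the counts of Zfp genes was not tested. The gap between Zfp genes and all genes was widest at 1 dpi, where by promoter region the Zfp share was near the background. Of the peak classes, the gap at 1 dpi was wider for gene body peaks than for intergenic ones (22 Zfp genes, 5.95%, against 4.17%). With a gene body peak there were 20 Zfp genes for 1 dpi (5.41%, against 1.73% of all genes), 8 for 3 dpi (2.16%, against 1.03%), 24 for 5 dpi (6.49%, against 3.25%), 49 for 7 dpi (13.2%, against 10.5%), 27 for primary neurons (7.30%, against 5.20%) and 7 for MEF (1.89%, against 1.92%).

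**Figure D5:**
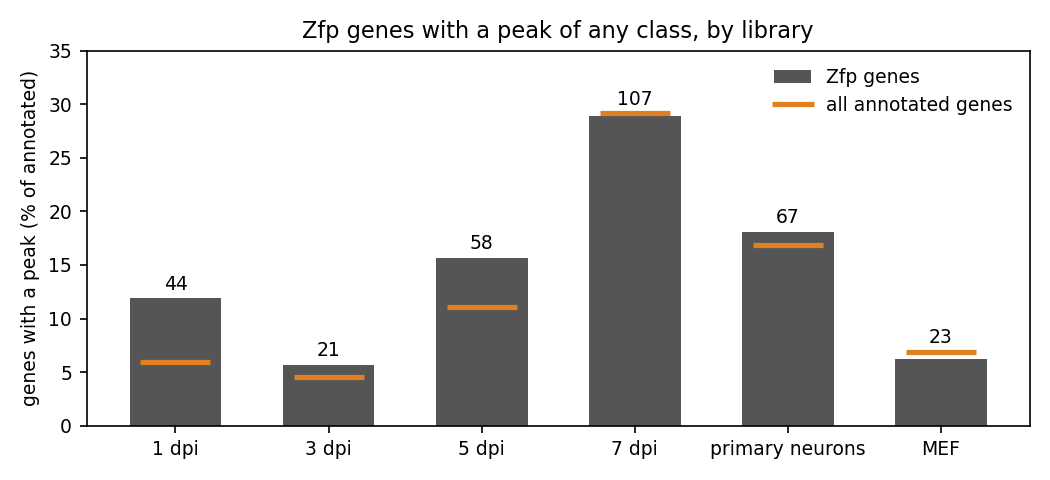
Genes with a peak of any class (% of annotated genes) in each library, with grey bars and numbers for Zfp genes and orange marks for all annotated genes. At 1 dpi the 44 Zfp genes stand at 11.9%, against 5.97% of all genes, and in MEF the 23 Zfp genes stand at 6.22%, against 6.9%.

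Within a gene, these peaks lay relatively further from the start than those of other genes. The summits of Zfp gene body peaks were at a median of 67.9% of the way from the start to the end of the gene for 1 dpi (21 peaks), against 46.1% for other genes, and at 59.8% against 37.5% for 3 dpi, 64.8% against 46.5% for 5 dpi, 45.5% against 39.8% for 7 dpi, 66.1% against 42.3% for primary neurons and 82.6% against 39.7% for MEF, where there were 7 Zfp peaks. Zfp genes with such a peak were shorter, with a median of 12760 bases at 1 dpi against 60400 bases for other genes, and the part of length in this was not tested. Zfp629 was the only Zfp gene with a peak in all 6 libraries, and in each a peak lay in its gene body. The authors' deposited fold enrichment there was 12.9, 11.0, 12.1, 8.36 and 13.1 for 1, 3, 5, 7 dpi and primary neurons, and 7.95 for MEF.

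With a promoter peak there were 2 Zfp genes for 1 dpi (0.541%, against 0.24% of all genes), 1 for 3 dpi (0.270%, against 0.107%), 4 for 5 dpi (1.08%, against 0.461%), 8 for 7 dpi (2.16%, against 1.73%), 3 for primary neurons (0.811%, against 0.622%) and 0 for MEF (against 0.195%). These shares rest on at most 8 genes. Zfp236, Zfp3 and Zfp768 recurred among them. Of the listed higher regions, 1 of 4 for 1 dpi (25%, against 14.0% of all higher regions), 0 of 30 for 3 dpi (against 1.74%), 2 of 14 for 5 dpi (14.3%, against 11.7%), 6 of 47 for 7 dpi (12.8%, against 12.5%) and 1 of 91 for primary neurons (1.1%, against 2.58%) overlapped a peak of the same library. Of the lower regions, 0 of 48, 60, 54, 44 and 70 overlapped a peak of MEF, against 1.1%, 1.03%, 0.994%, 1.86% and 0.919% of all lower regions. Such overlap was rare over all genes, so the counts of 0 set nothing apart at Zfp genes.

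The genes that work with KRAB zinc finger proteins were described from a list of 27, of which 16 were listed in either direction. The share of all genes listed in either direction is not given here, so the 16 are compared with all genes by direction only. Higher regions were found at 1, 4, 0, 7 and 8 of them in the lists of 1, 3, 5, 7 dpi and primary neurons. These are 3.70%, 14.8%, 0%, 25.9% and 29.6%, against 1.77%, 5.23%, 3.85%, 12.4% and 20.4% of all genes. Over any comparison there were 13 (48.1%, against 33.6% of all genes). Lower regions were found at 4, 5, 4, 3 and 6. These are 14.8%, 18.5%, 14.8%, 11.1% and 22.2%, against 10.6%, 13.2%, 10.7%, 8.87% and 15.3%. Over any comparison there were 6 (22.2%, against 17.6%). The shares rest on few genes. Neither Trim28 nor Setdb1, the core of the pathway, was among the 16. Cbx5, which encodes HP1 alpha, had 3, 0, 1, 0 and 2 reads in the libraries of 1, 3, 5, 7 dpi and primary neurons, against 19 in MEF, and a second region at 0 in all 5 tested libraries against 14 in MEF. Dnmt1, the maintenance DNA methyltransferase, was lower in all 5 with 0 reads against 11 to 15 in MEF, but no single Dnmt1 locus was listed in all 5. Another Dnmt1 region had 10 reads at 7 dpi against 0 in MEF.

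Further members of this list were listed as higher, as lower or as both, and not all of them are named here. Dnmt3b, a de novo DNA methyltransferase, had 21 reads in primary neurons against 0 in MEF. Ehmt1, a histone H3K9 methyltransferase, had 12 reads at 1 dpi, 12 reads at 7 dpi and 13 reads in primary neurons, against 0 in MEF, at overlapping places. Mphosph8, a subunit of the HUSH silencing complex, had 18 reads at 7 dpi against 0 in MEF in 1 region, and 0 reads at 1 dpi, 3 dpi and in primary neurons against 12 in another. Morc2a, which works with HUSH, had 0 reads at 5 dpi, 7 dpi and in primary neurons, against 15 in MEF.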

How the data were processed

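MeDIP-seq promoter tables and peak lists of 6 libraries were used, 1 library per group, taken from the sample titles and cell type labels. Tools listed are CASAVA and Bowtie2 2.1.0, with the mm10 build, per the submitters' processing notes. Not given in the sources used here are the peak caller, the test, its threshold, how reads are assigned to a region and the library totals, so the depth of a library is unknown and precision rests on the reads of each region. Libraries at 1, 3 and 5 dpi and their MEF values were deposited as whole read counts. The deposited values of the other comparisons are a scaled signal. There 1 read of 7 dpi counts 1.16 and 1 read of its MEF column 0.866, while 1 read of primary neurons counts 0.966 and 1 read of its MEF column 1.04. Division gave whole reads for 100% of values up to 20 reads, within 0.1 read. The p-values, q-values and log2 ratios in the same tables are the authors' own. Their p-values equal a G-test of both values against an even split within 1% in 98.2% of regions. A deposited p of at most 0.0001 holds for 99.8% of the Zfp regions, all but the Zfp934 region at 1 dpi. In the peak lists the authors' deposited fold enrichment is a linear ratio, beside a tag count at the summit and the −log10 of a q-value.

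Genes were counted once per list and set against 26220 RefSeq genes (GRCm38.p6) with a curated transcript. Of the listed names, 2 were matched by gene ID. Ratios carry exact Clopper-Pearson 95% intervals, and a library at 0 was set to 3 reads of its own. With 1 library per group no test of conditions, SD or p was computed. Genes named are the 3 regions with the smallest deposited p per list, up to 10 genes lower in all 5 comparisons, up to 5 with both directions in 1 comparison, 2 for each of 4 clusters and a role list. Other genes named in counts or by their reads or peaks were chosen after their values were seen. Members and lists were chosen with earlier results of these data known. The counting was tested on simulated data. Python 3.11.15, numpy 2.4.6, scipy 1.17.1, pandas 2.3.3 and matplotlib 3.10.9 were used.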

Additional observations from a re-analysis of the deposited data

How the results depend on the processing

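Of 82 alternative values, 52 stayed within 1.5 times of the reported one and 30 moved further. With a deposited p of at most 1e-05, Zfp genes higher than MEF numbered 2, 7, 3, 12 and 43 for 1, 3, 5, 7 dpi and primary neurons, and lower genes 10, 18, 13, 9 and 25. Under it 2 genes were lower in all 5 comparisons, 38 genes in clusters and 21 outside were higher in any comparison, 20 and 11 were lower, and 7 cofactor genes were higher. With a minimum of 13 reads in the higher library, 18, 6 and 14 Zfp genes were higher at 3, 5 and 7 dpi, and 24, 31, 29 and 35 were lower for 1, 3, 5 dpi and primary neurons. A G-test on unscaled reads, run on the listed regions only, left 26 higher genes at 7 dpi. Counting promoter peaks only left 2, 1, 4, 8 and 3 Zfp genes with a peak for 1, 3, 5, 7 dpi and primary neurons, and 0 for MEF. A stricter limit leaves fewer regions by its construction. Names with a suffix, other cluster gaps, a fold enrichment of at least 5, counting by overlapping region and leaving out the shortest regions moved no value past 1.5 times. Most Zfp regions rest on 10 to 21 reads in 1 library and 0 in the other, and every comparison depends on the 1 MEF library, which cannot be left out. No paired analysis was possible because each group has 1 library, so the groups share fewer than 2 replicate numbers.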

Other observations

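Some listed regions of opposite direction overlap, which bears on how the deposited reads can be read. At Zfp507 the region chr7:35804001-35804200 had 11 reads at 7 dpi against 0 in MEF, and the region chr7:35804021-35804240 had 0 reads in primary neurons against 11 in MEF. The pair shares 180 bases and the second extends past the first by 40 bases, so the same MEF library is listed with 0 reads over one and 11 over the other. At Zfp513 both directions were listed at 3 dpi: 14 reads against 0 in MEF and, in a region that shares 60 bases with it, 0 reads against 15 in MEF. Over all Zfp genes 21 such pairs were found in 8 genes, and in 1 of them the lower region had at most 100 bases outside the higher one. Over the whole series there were 1071 pairs in 378 genes, 91 of them with at most 100 bases outside, and the smallest such stretch was 20 bases. How the deposited files assign reads to a region is not given in the sources used here, and its part in these values was not tested.

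Peaks assigned to Zfp386 can lie far from the gene. The one with the highest deposited fold enrichment in primary neurons (11.9) lies 951898 bases upstream of the annotated start, and those with the highest at 3 dpi (9.72) and 7 dpi (12.9) lie 76007 and 75995 bases upstream.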
